A study of Homo sapiens with 18 samples.

Results

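The zinc finger genes of chromosome 19 were described across knockdown of EZH2, knockdown of E2F1 and chemical inhibition of EZH2 in MDA-MB-231 cells. Members were all protein-coding genes of chromosome 19 in the GENCODE annotation whose symbol begins with ZNF followed by a number. No measured value enters this rule, but the set was chosen with earlier results of these data known. The rule gave 249 genes, all of them present in the deposited tables of 62703 genes. For comparison, 266 protein-coding genes with such a symbol lie on other chromosomes, and chromosome 19 holds 1227 other protein-coding genes. The coding sequences fitted the label, since letters of a zinc finger were found in the translation of every member other than ZNF625-ZNF20 and ZNF816-ZNF321P, which join parts of neighbouring genes. The median member had 13 fingers, and ZNF729 had the highest number, 39. A KRAB box was read in 210 members and not in the other 39.

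Zinc fingers of this kind are short loops held by a metal ion between cysteines and histidines, and a row of them reads a stretch of DNA. The KRAB box is the part that represses. It binds TRIM28 (KAP1), which brings the histone H3 lysine 9 methyltransferase SETDB1, HP1 proteins and the NuRD deacetylase to the site, and many KRAB zinc finger proteins silence transposable elements in this way. The family grew by tandem duplication, so that its genes stand in rows on chromosome 19 and resemble their neighbours, and the bodies of many of these genes carry the same methylated histone mark themselves, in part through ZNF274. EZH2 is the enzyme of PRC2 that methylates histone H3 at lysine 27, while E2F1 switches on genes that cells need to enter S phase.

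MDA-MB-231 is an established human cell line that grew from a breast cancer lacking the hormone receptors and HER2 amplification. Polyadenylated RNA had been sequenced from 5 groups, and 10 distinct libraries, 2 a group, remained after 8 of the 18 records were found to repeat another value for value. In the knockdown experiment cells were exposed to lentivirus for 24 h and kept in puromycin (2 μg/ml) for 72 h; they received Control shRNA, shEZH2 or shE2F1, so that transduction and selection were shared by all 3 groups, and each group is a selected population of the same line. In the second experiment cells were kept for 72 h in DMSO or in 1 μM GSK126, which competes with the methyl donor of EZH2. The study asked whether EZH2 acts on transcription together with E2F1 and apart from its methyltransferase activity. No source says that the replicates were separate cultures, so p-values measure only the spread between these libraries.

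The libraries held 13198932 to 20055550 counts. EZH2 transcripts fell by 1.79 ± 0.12 (log2 fold change ± SE) under shEZH2. Under shE2F1 they stood at -0.37 ± 0.12 (edgeR adjusted p = 0.0227), short of 2-fold. E2F1 transcripts fell by 2.54 ± 0.24 under shE2F1 and by 1.59 ± 0.23 under shEZH2 (1.10 after the correction described below). The line's mesenchymal markers VIM, CD44 and MSN were high in every library (243 to 2860 TPM), PGR and CD3E were at 0, ESR1 and the leukocyte gene PTPRC stayed at or below 0.46 TPM, and CDH1 reached 4.50 TPM, while EPCAM (12.4 to 37.7 TPM) and ERBB2 (20 to 35.6 TPM) were expressed. Some of these moved with the knockdowns: VIM fell by 1.33 under shEZH2, EPCAM fell by 1.24 and MSN, short of 2-fold, by 0.93 under shE2F1, and CDH1 rose by 2.23 under shEZH2 and 3.91 under shE2F1. Their part in the members' results was not tested. In the drug experiment the first replicates of DMSO and GSK126 had mean fragments of 205 and 204 bases and the second ones of 175 and 171. In the shEZH2 libraries fold changes followed base composition. Over all genes, cut by GC content into 10 bins of equal size, the median log2 fold change against Control shRNA ran from 0.22 in the bin of lowest GC to -0.51 in the bin of highest GC. Members are poor in GC (median 42.4%, against 48.7% for all coding genes and 59.3% for the other coding genes of chromosome 19), so the shEZH2 calls are given as measured and again after each library was corrected for GC content and transcript length.

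Promoter sequences are shown for 2 sets of members, because both sets are referred to beside the shE2F1 result. They come from RefSeq (GRCh38.p14), which gave the 250 bases before and the 50 bases after the start for 218 of the 249 members. The first set carries an E2F site within this stretch, at positions from -190 (ZNF541) to 47 (ZNF708) relative to the start. The letters TTTCCCGC, TTTGGCGC, TTTCGCGC and TTTGCCGC were searched on both strands, and since they differ from each other, matches to 2 of them can overlap only in part. At least 1 of them was found in 18 of the 218 member promoters (8.26%), against 4.49% of the promoters of all 15345 coding genes. ZNF816 and the joined gene ZNF816-ZNF321P have the same letters at the same position (-150), so the 18 may not all be distinct promoters. Shown are 3 such members with a site close before the start, chosen after their values were seen and all higher under shE2F1. ZNF444, with a site at -27, stood at -0.32 ± 0.12 under shE2F1 and is not shown. The 40 bases before the start of the 3, with the site in capitals, read as follows.
ZNF90, chr19:20077960-20077999, plus strand: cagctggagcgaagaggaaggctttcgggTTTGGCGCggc
ZNF486, chr19:20167174-20167213, plus strand: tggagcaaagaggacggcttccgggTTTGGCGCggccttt
ZNF101, chr19:19668799-19668838, plus strand: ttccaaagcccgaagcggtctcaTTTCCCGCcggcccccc

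The second set shows how alike duplicated neighbours can be. The run CCCGCCCAGGCCTGGCTTC, 19 bases long, was found as the longest run common to the promoters of 4 genes that had been seen to rise under shE2F1, so its presence in them is a description. Searched on both strands, it stood in 6 of the 218 member promoters (2.75%) and in 6 of the 15345 coding promoters (0.0391%), which are the same 6 genes, all within 1 Mb on the long arm. The 60 bases before their starts, with the run in capitals, read as follows.
ZNF808, chr19:52527608-52527667, plus strand: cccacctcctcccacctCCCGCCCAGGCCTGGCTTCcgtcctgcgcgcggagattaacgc
ZNF845, chr19:53333689-53333748, plus strand: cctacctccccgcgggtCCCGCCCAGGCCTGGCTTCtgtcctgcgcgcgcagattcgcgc
ZNF525, chr19:53365645-53365704, plus strand: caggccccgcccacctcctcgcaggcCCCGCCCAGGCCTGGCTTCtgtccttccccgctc
ZNF765, chr19:53395089-53395148, plus strand: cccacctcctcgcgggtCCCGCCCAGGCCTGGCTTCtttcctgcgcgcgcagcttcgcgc
ZNF761, chr19:53431924-53431983, plus strand: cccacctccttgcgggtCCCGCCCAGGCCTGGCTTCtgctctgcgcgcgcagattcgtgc
ZNF813, chr19:53467673-53467732, plus strand: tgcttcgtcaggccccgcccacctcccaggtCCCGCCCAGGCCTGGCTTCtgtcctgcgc

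Levels varied widely among members. Their median ranged from 4.07 TPM (GSK126 replicate 2) to 5.98 TPM (shE2F1 replicate 2), TPM being a level per transcript length, beside 3.76 to 5.10 TPM for all coding genes, with quartiles of 1.71 and 8.68 TPM in Control shRNA replicate 1, and 204 to 215 of the 249 exceeded 1 TPM in a library. In RNA from whole cultures, fewer cells that express a gene and less RNA in each cell cannot be told apart. All members together took 0.281% to 0.365% of the counts. Members without a KRAB box stood higher than those with one in every library, with medians of 8.63 to 13.6 TPM against 3.66 to 5.54 TPM. The highest mean levels over the 10 libraries were those of ZNF428 (72.3 TPM), ZNF146 (67.7 TPM), ZNF787 (59.8 TPM), ZNF544 (52.6 TPM) and ZNF274 (49.3 TPM), and only the last 2 of these carry a KRAB box. ZNF428 ranged from 60.3 to 85.3 TPM over the libraries, ZNF787 from 44.7 to 69.6 and ZNF544 from 45.5 to 61.0, so that their order changed from library to library. At the other end, 11 members had no count in any library, which allows at most 0.150 to 0.227 CPM (3 counts) by counting error only. Of these 11, 7 lie in the row of genes at 19.7 to 24.1 Mb (ZNF208, ZNF257, ZNF729, ZNF98, ZNF99, ZNF728 and ZNF730), and the others are ZNF556, ZNF229, ZNF677 and ZNF835. In all, 222 members passed the filter on low counts in the knockdown experiment and 220 in the drug experiment, and the 27 that were never tested had a mean of at most 0.274 CPM in the knockdown libraries. Because 27 members share over 20% of their 50-base stretches with another gene, reads of these members may have been divided between genes, and 23 of them were tested. Per library, levels are given below in CPM, a library's count divided by its total in units of 1e6, scaled by TMM over the 10 libraries.

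After knockdown of E2F1 more members were higher than lower. Against Control shRNA, 19 members were higher and 2 were lower among the 222 tested, a gene being called at an adjusted p under 0.01 (edgeR's quasi-likelihood test, Benjamini-Hochberg adjustment over all 15373 genes tested) and a change of more than 2-fold. Over all genes, 5.6% were called higher and 5.96% lower. Without the demand on size, 69 members were higher and 17 lower with an adjusted p under 0.05, beside 21.1% and 23.7% of all genes. The median log2 fold change was 0.28 over the members and -0.0005 over all genes, and 157 of the 222 members were higher. By library, the members' median log2 CPM was 3.14 and 3.21 in Control shRNA, 3.43 and 3.47 in shE2F1, and 3.40 and 3.40 in shEZH2. In the second experiment it was 3.49 and 3.28 in DMSO and 3.40 and 3.15 in GSK126. DMSO replicate 1 thus lay above both shE2F1 libraries, and GSK126 replicate 2 lay between the Control shRNA libraries. Why the controls of the experiments differed was not tested. Among the zinc finger genes of other chromosomes 4 were called higher and 7 lower, with a median of -0.04 over 226 genes, and the other coding genes of chromosome 19 had 59 higher, 40 lower and a median of 0.04 over 763. Of the 19 that rose, 18 carry a KRAB box and the other is ZNF345, whereas neither of the 2 that fell, ZNF358 and ZNF146, carries one. The median was 0.31 over the 188 KRAB members and 0.10 over the 34 others, and no test of that difference was made. By number of fingers, members with over 15 had 7 called higher, none lower and a median of 0.41 (54 tested), those with 10 to 15 had 8, 1 and 0.18 (109 tested), and those with up to 9 had 4, 1 and 0.33 (59 tested). None of the 23 tested members that share over 20% of their sequence was called. The correction for GC content and length left 18 higher and 2 lower, 20 of them shared with the uncorrected result (5.39% and 6.47% of all genes), and a median of 0.24. Without shE2F1 replicate 2 the count fell to 11 (9 higher, 2 lower), while DESeq2, the other settings of the fit and leaving out any other library kept it within 1.5 times.

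**Figure D1:**
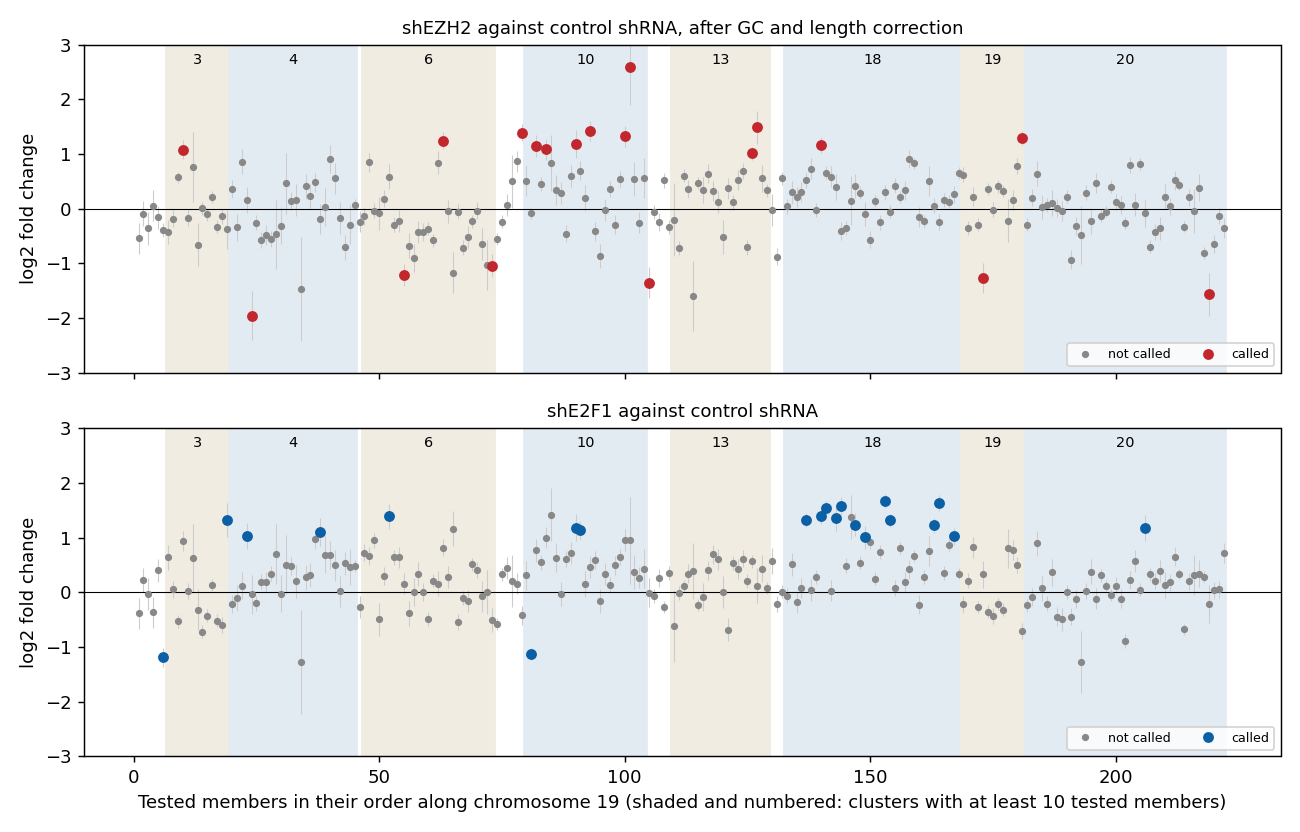
Log2 fold change (points) and its standard error (lines) of the 222 tested members in their order along chromosome 19, for shEZH2 after correction for GC content and length (top) and for shE2F1 (bottom), with called members in colour. In the bottom panel 12 of the 19 members called higher lie in the shaded row numbered 18, and in the top panel 6 of the 13 lie in the row numbered 10.

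Of the 19 members called higher under shE2F1, 12 lay in 1 stretch of the chromosome. Members whose starts lie under 500 kb apart were joined into 20 rows, 8 of which hold at least 10 members. The row at 51.6 to 53.6 Mb, numbered 18, holds 40 members, 39 of them with a KRAB box. Of its 36 tested members, 12 were called higher and none lower under shE2F1, 33 of 36 were higher, and the median log2 fold change was 0.70. The other 7 calls came from the rows at 8.5 to 9.8 Mb (1), 11.5 to 12.6 Mb (2), 19.7 to 24.1 Mb (1), 36.2 to 37.8 Mb (2) and 57.2 to 58.5 Mb (1). The summed level of row 18 was 471 and 477 CPM in Control shRNA, 632 and 635 CPM in shEZH2 and 781 and 797 CPM in shE2F1. These sums are not corrected for GC content. The 3 groups did not overlap, which was also so in the rows at 8.5 to 9.8 Mb and 43.5 to 44.5 Mb. In the second experiment the DMSO libraries had 705 and 606 CPM and the GSK126 libraries 660 and 548, above Control shRNA in all 4 libraries, and what part the handling of the cells or the fragment length had in this was not tested. The rows were drawn from positions alone, but row 18 is described first because of its values. Of 14 other coding genes inside the row, 4 were tested, with log2 fold changes under shE2F1 of -1.62 to 0.03 (median -0.22) and no call.

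**Figure D2:**
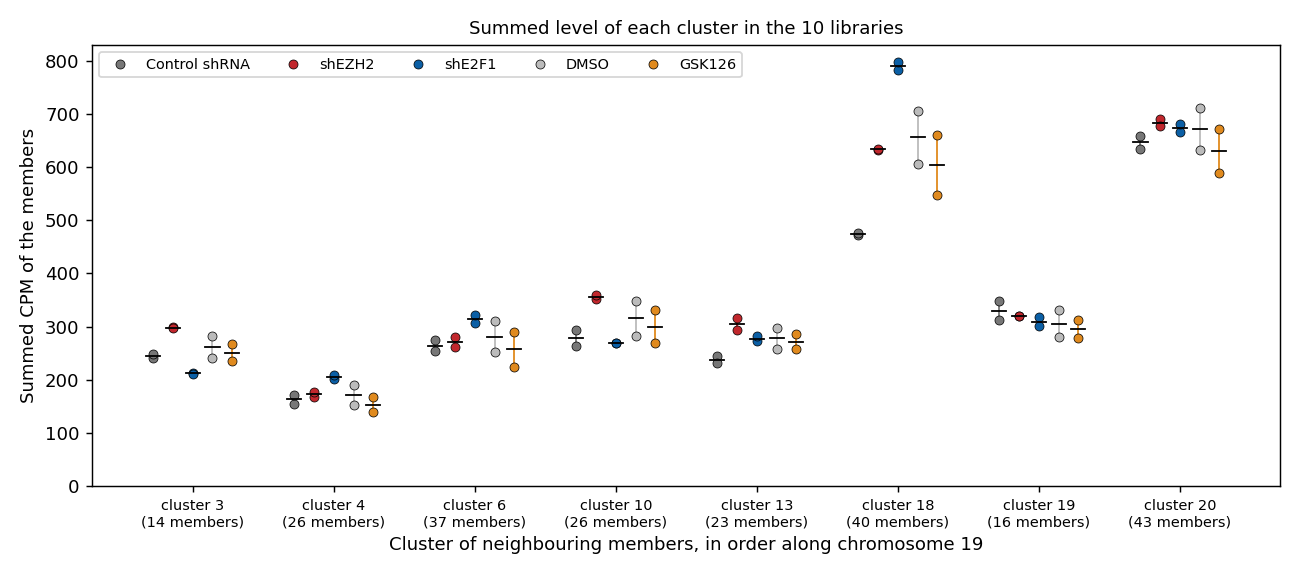
Summed CPM of the members of each row of at least 10 members (points are the 10 libraries, horizontal bars the means of the 2 libraries of a group). Row 18 stood at 471 and 477 CPM in Control shRNA and at 781 and 797 CPM in shE2F1, and its values in DMSO (705 and 606 CPM) lay above those of Control shRNA.

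The strongest rises under shE2F1 fell in row 18. ZNF600 (GRCh38 chr19:52749942-52786807, minus strand, 18 fingers) stood at 15.4 and 12.9 CPM in Control shRNA, 42.5 and 48.3 in shE2F1, 20.3 and 18.6 in shEZH2, 17.3 and 16.8 in DMSO, and 16.2 and 17.3 in GSK126. Its shE2F1 libraries were thus far above all others, with a log2 fold change of 1.67 ± 0.14 (edgeR adjusted p = 6.55e-06). ZNF525, whose promoter is shown above, stood at 8.30 and 8.11 CPM in Control shRNA, 24.2 and 27.2 in shE2F1, 8.74 and 8.17 in shEZH2, 15.1 and 10.2 in DMSO, and 13.6 and 11.2 in GSK126, a log2 fold change of 1.64 ± 0.14 (edgeR adjusted p = 1.12e-05). Its shEZH2 libraries lay with the controls. The same held for ZNF766, at 9.70 and 9 CPM in Control shRNA, 28.6 and 27.7 in shE2F1, 9.72 and 7.32 in shEZH2, 15.9 and 12.5 in DMSO, and 14.5 and 11.2 in GSK126 (log2 fold change 1.58 ± 0.16, edgeR adjusted p = 2.53e-05). ZNF841 rose in both knockdowns but passed 2-fold only in shE2F1. It stood at 19.2 and 17.0 CPM in Control shRNA, 51.7 and 55.1 in shE2F1 and 32.3 and 29.2 in shEZH2, with log2 fold changes of 1.55 ± 0.12 and 0.75 ± 0.12 (edgeR adjusted p = 4.24e-06 and 0.000381), the latter 0.65 after correction. It stood between 28.7 and 35.8 CPM in the 4 drug libraries. ZNF841 overlaps ZNF432 on the same strand over 4.64% of its length, so some reads of these neighbours may have been exchanged.

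ZNF350, known as ZBRK1, a KRAB repressor that works with BRCA1, stood at 9.27 and 8.82 CPM in Control shRNA, 22.6 and 23.0 in shE2F1 and 13.7 and 13 in shEZH2. It rose by 1.32 ± 0.14 on the log2 scale under shE2F1 (edgeR adjusted p = 3.09e-05) and by 0.54 ± 0.14 under shEZH2 (edgeR adjusted p = 0.0074, 0.52 after correction), the latter under 2-fold. The drug libraries, at 9.73 to 12.9 CPM, ranged from near the controls to just under the shEZH2 libraries. Outside row 18, ZNF682 in the row at 19.7 to 24.1 Mb stood at 2.81 and 3.06 CPM in Control shRNA, 7.05 and 8.41 in shE2F1, 5.20 and 4.55 in shEZH2 and 2.36 to 3.21 in the drug libraries (log2 fold change 1.39 ± 0.22, edgeR adjusted p = 0.000544). Without shE2F1 replicate 2 its change was 1.26 with an adjusted p of 0.0106, just short of the threshold. The members nearest the fold threshold were ZNF808 (1.01), a gene needed for pancreas development, and ZNF529 (0.99), which fell just outside it.

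The 2 members that fell under shE2F1 lack a KRAB box. ZNF146 (OZF), which consists of little but fingers, is the second most abundant member. It stood at 123 and 148 CPM in Control shRNA, 61.3 and 63.5 in shE2F1, 144 and 133 in shEZH2, 135 and 119 in DMSO, and 136 and 113 in GSK126. Only its shE2F1 libraries were low, with a log2 fold change of -1.13 ± 0.11 (edgeR adjusted p = 1.86e-05). Without Control shRNA replicate 2 the change was -0.99, short of 2-fold. ZNF358 stood at 39.8 and 30.2 CPM in Control shRNA, 15.6 and 15.2 in shE2F1, 19.1 and 14.8 in shEZH2, and between 38.0 and 41.6 in the 4 drug libraries, and fell by 1.19 ± 0.17 under shE2F1 (edgeR adjusted p = 0.000226), or by 0.98 without Control shRNA replicate 1. It overlaps another annotated gene on the same strand over 20.1% of its length.

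The promoters shown above can be set beside these values. Of the 18 members with an E2F site, 13 were tested, 11 of them were higher under shE2F1 and none was called, with a median log2 fold change of 0.42. Over the 185 tested members with a promoter and no such site the median was 0.25, with 17 called higher and 2 lower, and no test of the difference was made. ZNF90, ZNF486 and ZNF101, with a site that begins at most 17 bases before the start, changed by 0.64 ± 0.13, 0.64 ± 0.20 and 0.72 ± 0.15 under shE2F1 (edgeR adjusted p = 0.00292, 0.0216 and 0.0029). Under shEZH2 the same 3 stood at -0.14, -0.10 and -0.02. ZNF444, a SCAN-domain factor with a pair of sites, stood at -0.32 ± 0.12 under shE2F1 (edgeR adjusted p = 0.0552). Of the 6 genes that share the run of 19 bases, ZNF525 (1.64), ZNF845 (1.23), ZNF813 (1.02) and ZNF808 (1.01) were called higher. The run was taken from these genes after they had been seen to rise, so their calls are no result of the search. Of the others, ZNF761 changed by 0.86 ± 0.11 (edgeR adjusted p = 0.000124) and ZNF765 by 0.35 ± 0.13 (edgeR adjusted p = 0.0503), and neither was called. So genes that share these letters ranged from no call to more than 2-fold. For ZNF525 and ZNF765 the RefSeq start differs from the GENCODE start.

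Under knockdown of EZH2 members were called in both directions, and the shift of their median shrank with a correction for base composition. As measured, 16 members were higher and 5 lower against Control shRNA, when 7.52% and 10.7% of all genes were. At an adjusted p under 0.05 and any fold, 60 were higher and 28 lower, beside 27% and 28.6% of all genes, or 54 and 36 after correction, beside 27% and 27.1%. The median log2 fold change was 0.15 over the 222 members and -0.02 over all genes, with 137 members higher. The zinc finger genes of other chromosomes had a median of 0.10 (11 called higher, 15 lower), or 0.04 after correction, and the other coding genes of chromosome 19 had -0.42 (24 higher, 153 lower), or -0.05. After correction for GC content and length, 13 were higher and 6 lower (7.68% and 8.57% of all genes), 16 of these 19 calls being among the uncorrected ones, the median was 0.06 beside 0.00 for all genes, and 118 members were higher. Before correction, members under 45% GC had 14 calls higher, 1 lower and a median of 0.24, and those of 45% or more had 2 higher, 4 lower and a median of -0.09. After it the medians were 0.04 and 0.06. KRAB members went from a median of 0.23 to 0.06, and members without a KRAB box, which are richer in GC (median 57.8% against 41.9%), from -0.24 to -0.02. Across the 222 members the correlation of fold change with GC content was -0.33 as measured and -0.006 after correction, a description over genes that share the same libraries. For shE2F1 the correlation was -0.018 over all genes and -0.23 over the members, and it stayed at -0.24 after correction.

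**Figure D3:**
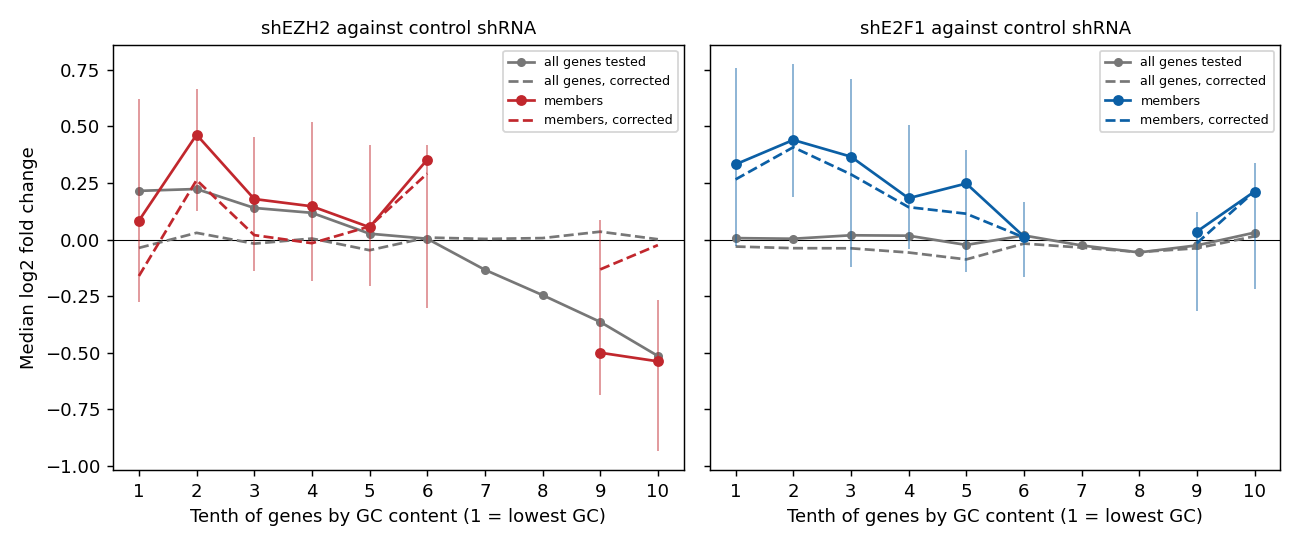
Median log2 fold change in 10 equal bins of GC content for all genes (grey) and for members (coloured, with the quartiles as vertical lines), before (solid) and after (dashed) the correction, for bins that hold at least 5 members. Under shEZH2 the grey line falls from 0.22 to -0.51 and is flat after correction, while under shE2F1 it is flat from the start and the members lie above it in the bins of lowest GC (0.33 against 0.01 in the first).

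Of the 13 members called higher after correction, 6 lay in the row at 36.2 to 37.8 Mb, numbered 10. Of its 25 tested members 6 were called higher and none lower under shEZH2, before and after correction, with medians of 0.59 and 0.50 and 20 and 18 of 25 higher. The shift of this row was as large under shE2F1, with a median of 0.55 (0.54 after correction) and 22 of 25 higher. There 2 members were called higher and 1 lower. Row 10 is described first here because of its shEZH2 values. Of 6 other coding genes inside this row 3 were tested, and their log2 fold changes under shEZH2 were as large, 0.59 to 1.08 (median 0.72), with no call. Among the other rows of at least 10 members, the one at 43.5 to 44.5 Mb had 2 called higher and medians of 0.47 and 0.35 over 20 tested members. The row at 19.7 to 24.1 Mb, which holds the members of lowest GC content (median 37.2%), had a median of -0.10 with 12 of 27 higher, and of -0.30 with 5 of 27 higher, 1 called higher and 2 called lower after correction. In row 18 the medians were 0.41 and 0.24, with 1 call.

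ZNF420 (Apak), a KRAB protein known as a brake on part of the p53 response, was among the clearest of row 10. It stood at 5.03 and 6.18 CPM in Control shRNA, 14.2 and 18.4 in shEZH2, 7.34 and 8.14 in shE2F1, 9.13 and 7.23 in DMSO, and 8.20 and 7.14 in GSK126. The shEZH2 libraries were above the other 8, with a log2 fold change of 1.53 ± 0.19 (edgeR adjusted p = 7.43e-05), or 1.42 ± 0.18 after correction. Its neighbour ZNF570 stood at 3.87 and 5.40 CPM in Control shRNA, 12.8 and 14.1 in shEZH2 and 9.01 and 9.06 in shE2F1, and 4.75 to 6.82 in the drug libraries (1.53 ± 0.20, edgeR adjusted p = 8.5e-05, 1.32 after correction). ZNF566 stood at 4.50 and 6.60 CPM in Control shRNA, 14.5 and 14.3 in shEZH2, and 11 and 6.44 in DMSO, a gap between the DMSO replicates that GSK126 repeated (11 and 6.90), and it changed by 1.37 ± 0.21 under shEZH2 (edgeR adjusted p = 0.000271, 1.14 after correction). ZNF345 and ZNF529 were also called higher in this row, as was ZNF540, which was chosen after its values were seen. ZNF540 had the largest fitted rise of all members (2.68 ± 0.68, edgeR adjusted p = 0.00655) from a trace, at 0.106 and 0.180 CPM in Control shRNA and 1.05 and 0.864 in shEZH2, close to the 3 counts set as the floor, so its fold rests on few counts and is no bound.

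Other members rose under shEZH2 outside that row. ZNF235 in the row at 43.5 to 44.5 Mb stood at 2.17 and 1.38 CPM in Control shRNA, 4.97 and 6.05 in shEZH2, 1.97 and 1.94 in shE2F1, 3.31 and 2.71 in DMSO, and 2.87 and 1.83 in GSK126. Its shEZH2 libraries were above the other 8, with a log2 fold change of 1.61 ± 0.30 (edgeR adjusted p = 0.000991, 1.49 after correction), when shE2F1 gave 0.12 ± 0.32 (edgeR adjusted p = 0.788). It overlaps ZNF227 on the opposite strand, which was called higher as well (1.07 ± 0.12), and since no source says that strand was used in counting, their reads cannot be told apart where they overlap. ZNF738 in the row at 19.7 to 24.1 Mb stood at 5.93 and 6.78 CPM in Control shRNA, 18.2 and 18.8 in shEZH2, 10.5 and 12 in shE2F1 and 5.54 to 8.77 in the drug libraries (1.53 ± 0.16, edgeR adjusted p = 2.41e-05, 1.24 after correction), and 18.3% of its length overlaps another annotated gene on the same strand. ZNF699, the human counterpart of the fly gene hangover, stood at 5.25 and 4.26 CPM in Control shRNA, 12.4 and 12.3 in shEZH2 and 8.58 and 9.76 in shE2F1 (1.36 ± 0.19, edgeR adjusted p = 0.000132, 1.08 after correction). The 3 members that fell short of 2-fold on correction were ZNF470, ZNF799 and ZNF587B (0.78, 0.92 and 0.81 after it). Nearest the threshold as measured were ZNF587B (1.02) inside and ZNF708 (0.99) outside it.

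Of the 5 members called lower under shEZH2, 3 kept the call after correction, and ZNF737 (-1.21), ZNF254 (-1.04) and ZNF546 (-1.36), at -0.83, -0.81 and -0.999 as measured and named after their values were seen, were called with it only. ZNF784 (64.8% GC, no KRAB box) stood at 8.48 and 6.72 CPM in Control shRNA, 2.86 and 1.44 in shEZH2, 10.1 and 9.12 in shE2F1, 5.97 and 7.80 in DMSO, and 5.27 and 8.79 in GSK126. Its shEZH2 libraries were the lowest 2 of the 10, and its log2 fold change of -1.87 ± 0.30 (edgeR adjusted p = 0.000342) became -1.27 ± 0.27 with correction. ZNF491 stood at 1.64 and 1.86 CPM in Control shRNA and 0.527 and 0.403 in shEZH2 (-1.93 ± 0.45, edgeR adjusted p = 0.0038), but its call was lost with DESeq2 (adjusted p = 0.0151) and without either Control shRNA or either shEZH2 library (edgeR adjusted p = 0.0116 to 0.0381). ZNF132 stood at 3.07 and 3.54 CPM in Control shRNA and 1.66 and 0.691 in shEZH2 (-1.55 ± 0.40, edgeR adjusted p = 0.00697), was lost with DESeq2 (adjusted p = 0.0118) and with every library left out other than shEZH2 replicate 1, and changed by -0.99 without shEZH2 replicate 2. ZNF324B (-1.08) and ZNF358 (-1.07), both rich in GC, lost the call on correction, at -0.65 and -0.39. They also lost it without shEZH2 replicate 2 (-0.96 and -0.87), and ZNF358 without Control shRNA replicate 1 (-0.86).

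**Figure D4:**
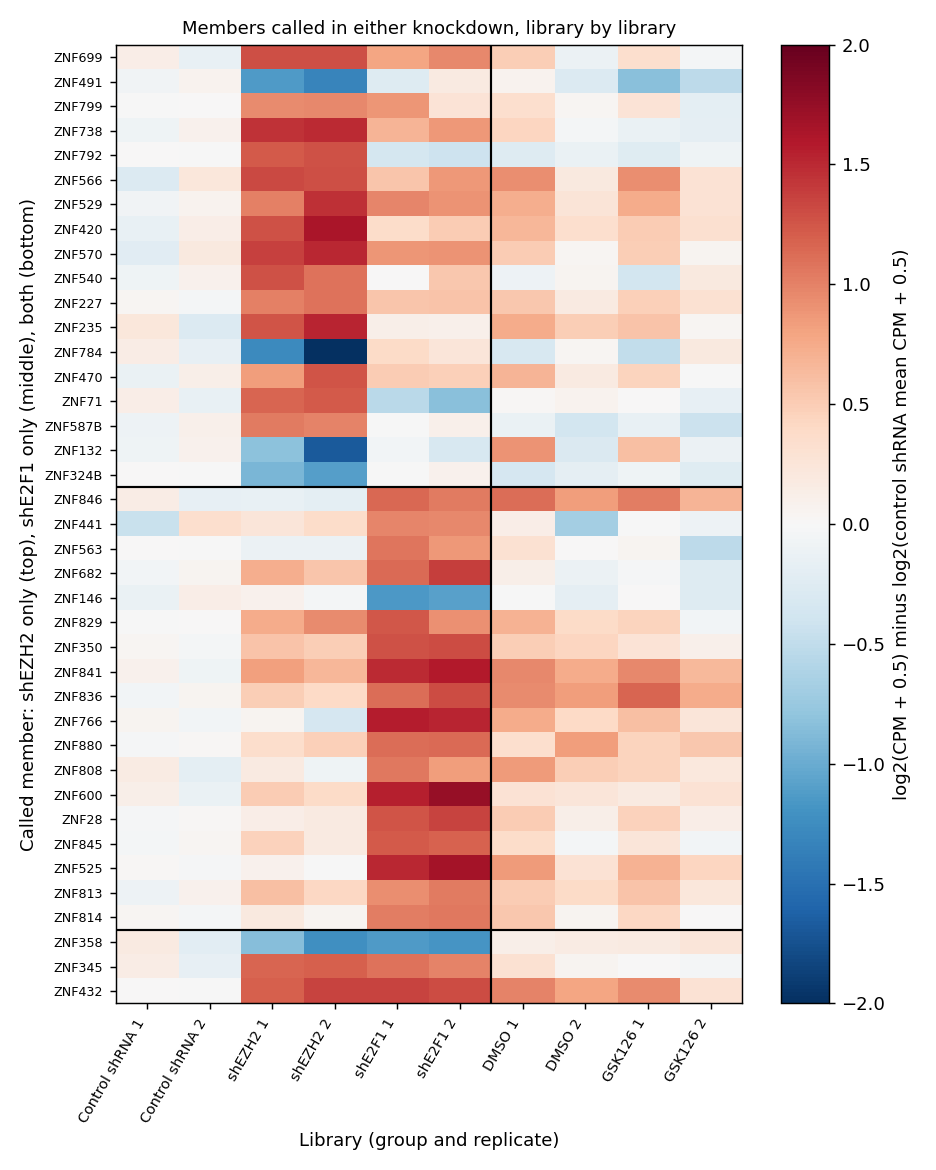
Level of the 39 members called in either knockdown in each of the 10 libraries, as the difference from the mean of the Control shRNA libraries in log2(CPM + 0.5), with colours ending at 2 and -2. The block of 18 members called in shE2F1 only is red in both shE2F1 libraries, except ZNF146, and several of its members are also red in DMSO, such as ZNF841 (35.7 and 30.5 CPM against 19.2 and 17.0).

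The 2 knockdowns were compared with the same Control shRNA libraries, so that their calls are not independent. In all, 39 members were called in either, 21 under each knockdown, and the 3 called in both are given here side by side. Of all genes, 7.52% were called higher and 10.7% lower under shEZH2, and 5.6% and 5.96% under shE2F1. The shares of all genes called in either or in both are not given here, so 39 and 3 are counts only. ZNF432 stood at 6.79 and 6.72 CPM in Control shRNA, 16.1 and 18.0 in shEZH2, 18.1 and 17.5 in shE2F1, 14 and 12 in DMSO, and 13.5 and 8.38 in GSK126. It rose by 1.32 ± 0.15 under shEZH2 (1.16 after correction) and by 1.39 ± 0.15 under shE2F1 (edgeR adjusted p = 3.54e-05 and 3.52e-05). ZNF345 stood at 2.43 and 1.86 CPM in Control shRNA, 5.43 and 5.53 in shEZH2 and 5.13 and 4.75 in shE2F1 (1.33 ± 0.25, 1.18 after correction, and 1.18 ± 0.25, edgeR adjusted p = 0.00113 and 0.00303), and its shE2F1 call was lost without Control shRNA replicate 2 or without either shE2F1 library (adjusted p = 0.017 to 0.0295). ZNF358 was lower in both, and after correction it was called in shE2F1 alone, which left 2 members called in both.

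Set against each other without the controls, the knockdowns differed in 27 members. Against shE2F1, 7 were higher and 20 lower in shEZH2 (10.4% and 12.9% of all genes), or 6 and 22 after correction (10.8% and 10.7%), 21 of which were shared. At an adjusted p under 0.05 and any fold, 49 were higher and 65 lower, beside 29.7% and 30.6% of all genes. The median log2 difference was -0.06, and -0.17 after correction. ZNF71, which tumour necrosis factor induces in endothelial cells, was the furthest to the shEZH2 side, at 23.5 and 19.2 CPM in Control shRNA, 48.4 and 50.6 in shEZH2 and 14.5 and 11.8 in shE2F1, between 19.1 and 22.6 in the 4 drug libraries, with a log2 difference of 1.91 ± 0.14 (edgeR adjusted p = 1.74e-06). It rose under shEZH2 (1.197 ± 0.14, edgeR adjusted p = 4.53e-05, 1.29 after correction) and fell by 0.71 ± 0.15 under shE2F1 (edgeR adjusted p = 0.00263), the latter under 2-fold. ZNF792 stood at 6.73 and 6.60 CPM in Control shRNA, 16.4 and 16.9 in shEZH2 and 5.13 and 4.85 in shE2F1, a difference of 1.73 ± 0.16 (edgeR adjusted p = 7.69e-06). These 2 were higher in shEZH2 with or without correction, and their GC contents are 54.0% and 51.4%.

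The next members higher in shEZH2 than in shE2F1 were ZNF235 (1.49), ZNF284 (1.18), ZNF146 (1.14) and ZNF420 (1.08). ZNF284 shares 44% of its 50-base stretches with an overlapping readthrough gene. ZNF235 lost this call without shEZH2 replicate 2 or either shE2F1 library (adjusted p = 0.0117 to 0.0143), and ZNF420 without shEZH2 replicate 2 (0.89), without shE2F1 replicate 1 (adjusted p = 0.0105) and on correction (0.99). Furthest to the other side, lower in shEZH2, among the called members that met the naming rule given below were ZNF784 (-2.20), ZNF429 (-2.10), ZNF491 (-1.89), ZNF766 (-1.74), ZNF414 (-1.62) and ZNF525 (-1.61). ZNF429 stood at 2.33 and 1.68 CPM in Control shRNA, 1.36 and 0.806 in shEZH2 and 4.89 and 4.21 in shE2F1, and was called in neither knockdown by itself. ZNF414 stood at 11.6 and 7.26 CPM in Control shRNA, 5.65 and 4.09 in shEZH2 and 15.7 and 13.8 in shE2F1, and its difference was -1.05 after correction. ZNF491 lost this call with DESeq2 (adjusted p = 0.0151), without either shEZH2 library and without shE2F1 replicate 2 (adjusted p = 0.0121 to 0.0411). In row 18, 5 members were lower in shEZH2 than in shE2F1 and none higher, or 7 after correction. The members nearest the threshold were ZNF526 (-1.01) inside and ZNF737 (-0.99) outside.

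Inhibition of EZH2 by GSK126 called no member. Of 220 tested, 0 were higher and 0 lower against DMSO by edgeR, beside 0% of all 14632 genes, and DESeq2 called 0 as well. None passed an adjusted p under 0.05, and at an unadjusted p under 0.05 there were 2 members and 577 genes in all. The median was -0.09 over the members and -0.005 over all genes, and 58 of 220 were higher. This median moved when 1 library was left out. It was 0.02 without DMSO replicate 1 and 0.01 without GSK126 replicate 2, but -0.22 without DMSO replicate 2 and -0.22 without GSK126 replicate 1. Such a fit has unequal shares of replicate 1 and replicate 2, which differed from each other (below). Within replicate 1 and within replicate 2 the median was -0.09 in each. The members with the smallest p were ZNF749 (0.22 ± 0.13), ZNF551 (0.22 ± 0.15) and ZNF726 (0.43 ± 0.41) on the higher side and ZNF878 (-1.48 ± 0.53), ZNF626 (-0.47 ± 0.18) and ZNF486 (-0.36 ± 0.16) on the lower, each with an edgeR adjusted p of 1.00. ZNF878 stood at 0.602 and 0.735 CPM in DMSO and 0.234 and 0.246 in GSK126, near the floor of counting. ZNF626 stood at 10.6 and 8.76 CPM in DMSO and 7.09 and 6.91 in GSK126.

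In the median member, the replicates of the drug experiment differed by more than the groups did. From replicate 2 to replicate 1, 171 of 220 members were higher in DMSO and 170 in GSK126, with median log2 differences of 0.23 in each, when the medians of all genes were -0.008 and 0.002. Replicate 1 is the one with the longer fragments, and the part of fragment length in this was not tested. Within replicate 1, 158 members were lower in GSK126 and 62 higher (median -0.09), within replicate 2, 151 were lower and 69 higher (median -0.09), and 111 were lower in both against 22 higher in both, when 5003 and 4559 of all genes were. With the replicate as a block no member was called, beside 0.362% of all genes higher and 0.103% lower, 0 higher and 13 lower members had an adjusted p under 0.05 at any fold (6.3% and 7.3% of all genes), and 37 of 220 members had an unadjusted p under 0.05, beside 3720 of all 14632 genes. That fit leaves 1 residual degree of freedom.

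**Figure D5:**
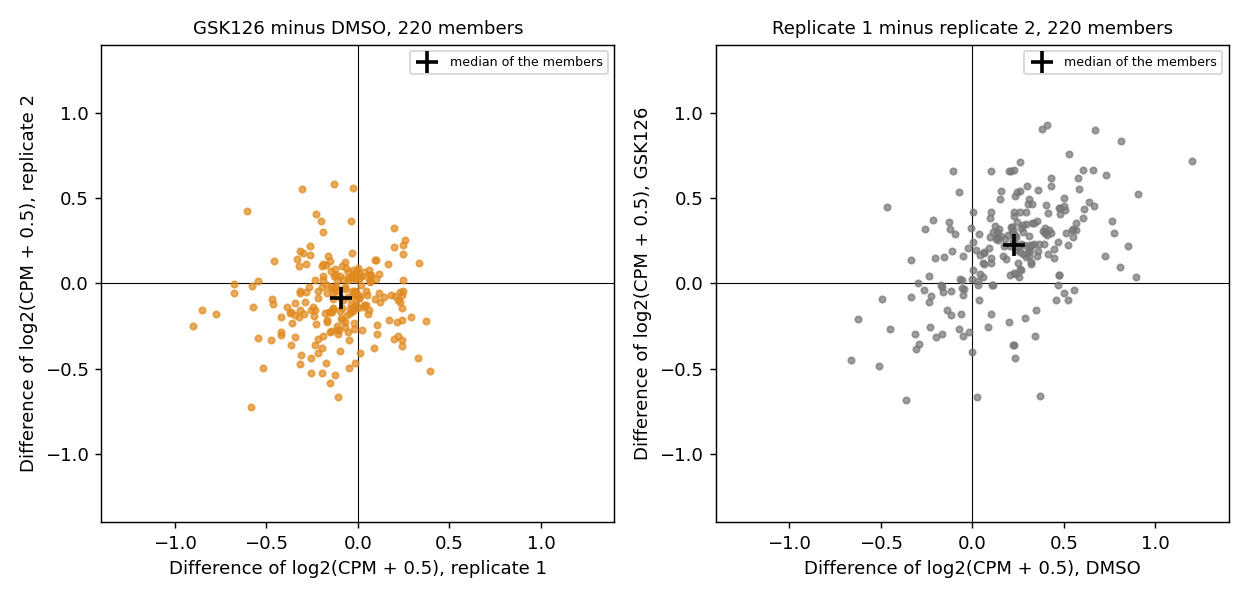
Differences in log2(CPM + 0.5) of the 220 members tested in the drug experiment, as GSK126 minus DMSO in replicate 1 and replicate 2 (left) and as replicate 1 minus replicate 2 in DMSO and GSK126 (right), with crosses at the medians. The left cross lies at -0.09 on both axes and the right one at 0.23 on both, so that replicates were further apart than groups.

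The effect of shEZH2 differed from that of GSK126 in 21 members. In a fit of all 10 libraries, the shEZH2 effect minus the GSK126 effect was higher in 18 members and lower in 3 (5.13% and 8.67% of all genes), or in 17 and 1 after correction (5.52% and 6.97%), 16 of which were shared. At an adjusted p under 0.05 and any fold, 47 were higher and 11 lower, beside 16.9% and 19.7% of all genes, and the median difference was 0.26 over the members and -0.03 over all genes. This median was 0.12 without DMSO replicate 1, 0.13 without GSK126 replicate 2 and 0.40 without GSK126 replicate 1. Among the called members that met the naming rule given below, the furthest above were ZNF235 (1.98 ± 0.44), ZNF738 (1.95 ± 0.27), ZNF420 (1.64 ± 0.28), ZNF432 (1.59 ± 0.28), ZNF345 (1.59 ± 0.36) and ZNF570 (1.55 ± 0.33), with edgeR adjusted p from 0.000262 to 0.0047. Members outside that rule reached up to 2.87. The 3 below were ZNF784 (-1.89), ZNF324B (-1.16) and ZNF358 (-1.13), none of which kept the call after correction (-1.26, -0.70 and -0.41). The experiments differ in more than the target, since transduction and puromycin are stated for the hairpin cells only. The count depended on single libraries: it was 7 without shEZH2 replicate 2, 8 without DMSO replicate 1, 9 without GSK126 replicate 2 and 11 without Control shRNA replicate 1. Each of ZNF235, ZNF345, ZNF570 and ZNF784 lost its call without at least 4 of the libraries in turn (edgeR adjusted p = 0.0101 to 0.0356), ZNF324B lost it without shEZH2 replicate 2 (adjusted p = 0.0141), ZNF358 without that library (-0.94) or Control shRNA replicate 1 (-0.92), and ZNF738, ZNF420 and ZNF432 kept theirs without any one. Nearest the threshold were ZNF227 (1.06) inside and ZNF586 (0.92) outside.

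Members with a known role mostly changed by less than 2-fold. ZNF274, which recruits SETDB1 to the 3′ ends of zinc finger genes, stood at 69.3 and 69.7 CPM in Control shRNA, 89.7 and 95.1 in shEZH2 and 84.8 and 90.9 in shE2F1. It rose by 0.40 ± 0.09 under shEZH2 (edgeR adjusted p = 0.00357, 0.43 after correction) and stood at 0.33 ± 0.09 under shE2F1 (edgeR adjusted p = 0.0129). ZNF91, a repressor of SVA elements, stood at 17.9 and 19.3 CPM in Control shRNA, 18.2 and 19.99 in shEZH2 and 25.3 and 28.0 in shE2F1 (0.03 ± 0.13 and 0.51 ± 0.13, edgeR adjusted p = 0.859 and 0.00709). ZNF93, which represses LINE-1 elements, stood at 0.23 ± 0.16 and 0.30 ± 0.16 with neither passing the test. ZNF331, an imprinted gene, stood at 25.6 and 27.5 CPM in Control shRNA, 44.1 and 47.9 in shEZH2 and 33.8 and 33.8 in shE2F1 (0.78 ± 0.11, edgeR adjusted p = 0.000124, 0.65 after correction, and 0.34 ± 0.11, edgeR adjusted p = 0.0231). ZNF224, a KRAB repressor that binds WT1, changed by 0.54 ± 0.13 under shE2F1 (edgeR adjusted p = 0.00628), but 42.4% of its length overlaps an antisense gene. ZNF675, an inhibitor of TRAF6 signalling, changed by 0.41 ± 0.15 under shE2F1 (edgeR adjusted p = 0.0401). ZNF382, described as a tumour suppressor, stood at 0.424 and 0.420 CPM in Control shRNA, 1.21 and 0.749 in shEZH2 and 0.959 and 1.35 in shE2F1, with neither difference called (edgeR adjusted p = 0.0745 and 0.0346).

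The partners through which KRAB boxes act were taken as a list of 25 genes for KRAB cofactors and histone H3 lysine 9 methylation, all tested. None was called higher and 1 lower under shEZH2, as measured and after correction (4%, against 18.2% of all genes as measured), and none higher and 2 lower under shE2F1 (8%, against 11.6% of all genes). At an adjusted p under 0.05, 8 were higher and 5 lower under shEZH2 (52%, against 55.6% of all genes). After correction these were 8 and 9 of the 25, when 27% of all genes were higher and 27.1% lower. For shE2F1, 4 were higher and 11 lower (60%, against 44.7% of all genes), and none was called under GSK126. TRIM28, the protein that KRAB boxes bind, stood at 713 and 724 CPM in Control shRNA, 512 and 461 in shEZH2, 436 and 417 in shE2F1, 513 and 624 in DMSO and 540 and 649 in GSK126. It fell by 0.76 ± 0.09 under shE2F1 (edgeR adjusted p = 7.5e-05), under 2-fold, and by 0.58 ± 0.09 under shEZH2, which became -0.06 ± 0.10 after correction (edgeR adjusted p = 0.676). SETDB1 stood at 23.7 and 25.5 CPM in Control shRNA, 41.1 and 45.9 in shEZH2 and 33.3 and 38.9 in shE2F1, and rose by 0.81 ± 0.12 (0.85 after correction) and 0.54 ± 0.12 (edgeR adjusted p = 0.000226 and 0.00387). The genes called were TASOR, the scaffold of the HUSH silencing complex, lower under shEZH2 (-1.4 ± 0.13, edgeR adjusted p = 9.22e-06, -1.76 after correction), and, lower under shE2F1, the deacetylase HDAC1 (-1.04 ± 0.09, edgeR adjusted p = 1.2e-05) and the H3 lysine 9 methyltransferase SUV39H2 (-1.25 ± 0.15, edgeR adjusted p = 8.88e-05). SUV39H2 stood at 24.1 and 30.3 CPM in Control shRNA, 10.5 and 12.6 in shE2F1 and 46.0 and 52.7 in shEZH2.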

How the data were processed

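RNA from MDA-MB-231 cells was extracted with Trizol, selected for poly(A) and made into libraries with a directional kit. According to the submitters' processing notes the authors used STAR 2.7.2b and RSEM 1.3.1 with hg38, and they deposited, for each gene and library, an expected count and a TPM value. Whether strand was used in counting is not given in the sources used here. Of 18 records, 8 repeated another and were used once.

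Expected counts were rounded to whole numbers and tested with edgeR 4.0.16 (R 4.3.3): TMM scaling, filterByExpr, the quasi-likelihood test and Benjamini-Hochberg adjustment over all genes tested, with a call at an adjusted p under 0.01 and more than 2-fold, the study's thresholds. The 6 knockdown libraries, the 4 drug libraries and, for the shEZH2 effect minus the GSK126 effect, all 10 libraries were fitted apart. The GC and length correction took, for each library, natural splines of GC content and log length with 5 degrees of freedom each. Symbols, positions, GC content and length came from GENCODE 44 (99.9% of the gene IDs matched), and KRAB and finger patterns were read from its translated coding sequences instead of RefSeq proteins. Named genes were the members called with a mean of at least 0.5 CPM whose treated libraries all lay on 1 side of the controls, 6 a direction with the largest change (without calls, 3 a direction with the smallest p), with those called in both knockdowns, the 5 of highest TPM, members with known roles and KRAB cofactors; ZNF540, ZNF227, the genes named only as losing a call or as nearest a threshold, and those named for their promoters were chosen after their values were seen. Members and lists were chosen with earlier results of these data known. Alternatives were DESeq2 1.42.0, its size factors, other filters, a replicate block, GC correction alone, other sets of libraries and leaving out each library. Replicates varied by a common coefficient of 0.0948 (knockdown fit) and 0.126 (drug fit). Scripts were tested on simulated data. Floors of 3 counts cover counting error only.

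Replicate numbers were checked for pairing by correlating the differences between replicates across 13479 genes. The correlation was 0.0142 to 0.113 between the knockdown groups (0.129 to 0.29 over 215 members), and since it did not exceed 0.1 for every pair over all genes, the numbers were not taken to pair them. It was 0.583 between DMSO and GSK126 (0.491 over the members), but with 2 pairs and no label of a shared batch the fit without the block was kept and the block given beside it.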

Additional observations from a re-analysis of the deposited data

Results flagged for a closer look

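The shEZH2 effect differed from the GSK126 effect by an interaction test in 21 of 222 members (edgeR, adjusted p under 0.01 and more than 2-fold). Of these, 18 were higher and 3 lower in the knockdown, beside 5.13% and 8.67% of all genes. After correction for GC content and length 17 were higher and 1 lower, beside 5.52% and 6.97% of all genes. ZNF738 had the smallest adjusted p among those named (0.000262), at 5.93 and 6.78 CPM in Control shRNA, 18.2 and 18.8 in shEZH2, 8.77 and 6.16 in DMSO and 5.74 and 5.54 in GSK126. Hairpin and drug experiments differ in transduction and selection, and the part of these was not tested.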

How the results depend on the processing

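At an adjusted p under 0.05 and any fold, 88 of 222 members passed for shEZH2, 86 for shE2F1, 114 for shEZH2 against shE2F1 and 58 for the shEZH2 effect minus the GSK126 effect. Of all genes, 27% were higher and 28.6% lower for shEZH2, and 21.1% and 23.7% for shE2F1. The shares were 29.7% and 30.6% for shEZH2 against shE2F1, and 16.9% and 19.7% for the difference of effects. The shEZH2 median moved to 0.0564 with GC and length correction, 0.0544 with that and the replicate block and 0.0566 with GC alone. The shE2F1 median moved to 0.23 with GC and length correction and the block and to 0.22 with GC alone. For shEZH2 against shE2F1 it moved to -0.10 with no filter, -0.17 with GC and length correction, -0.17 with that and the block and -0.12 with GC alone. The median under GSK126 changed sign without DMSO replicate 1 (0.02) and without GSK126 replicate 2 (0.01). Within replicate 1 and within replicate 2 it was -0.09 in each. No named gene changed direction. With the replicate block 21, 22, 27, 0 and 21 members were called (shEZH2, shE2F1, shEZH2 against shE2F1, GSK126 and the difference of effects). Leaving out 1 library gave 14 to 28, 11 to 23, 19 to 29, 0 to 0 and 7 to 26 calls, and medians of 0.14 to 0.20, 0.24 to 0.31, -0.07 to -0.05, -0.22 to 0.02 and 0.12 to 0.40, the last being lowest without DMSO replicate 1 and highest without GSK126 replicate 1. The lowest counts were without shEZH2 replicate 2 (14 and, for the difference of effects, 7) and without shE2F1 replicate 2 (11). Of 49 results on named genes, 32 kept direction and call under every alternative run, and of 793 values under alternatives, 72 kept the direction and lost the call. Groups of 2 libraries and 13198932 to 20055550 counts limit what members near the floor can show.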
